A study of Rattus norvegicus with 8 samples.

Results

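The genes described here are endothelial receptors and markers, a named set of 10: Eng, Cdh5, Tek, Tie1, Kdr, Flt1, Vwf, Emcn, Robo4 and Egfl7. They were looked up by symbol in the deposited gene table of 27742 rows, and 9 of the 10 had a row, 1 each. Robo4 had no row under its symbol. The file identifies these rows as MSTRG.12748 (Eng), MSTRG.9614 (Cdh5), MSTRG.16045 (Tek), MSTRG.16309 (Tie1), ENSRNOG00000046829 (Kdr), MSTRG.4995 (Flt1), MSTRG.15182 (Vwf), ENSRNOG00000022910 (Emcn) and MSTRG.12598 (Egfl7). The samples were thoracic aortas of wild type male Sprague Dawley rats, labelled 12 weeks old and 180 to 200 g. The nitroglycerin group (4 libraries) received nitroglycerin (GTN, an organic nitrate that dilates vessels) at 100 mg/kg subcutaneously 3 times a day for 3 days, and the control group (4 libraries) received its ethanol vehicle on the same schedule. The question, by the series title, is which genes differ in a nitroglycerin-tolerant aorta. Nothing in the labels ties each library to a separate rat, and p-values measure only the spread between these samples.

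Endothelial cells line the vessel lumen as a single layer and are a minority of the cells of an aorta, whose wall is mostly smooth muscle and matrix. The genes here cover the receptors by which that layer senses its growth factors and the proteins that mark its identity. Kdr and Flt1 are receptors for vascular endothelial growth factors (VEGF): Kdr carries most of the growth signal and Flt1 binds the ligand tightly and limits what reaches Kdr. Tek (Tie2) is the receptor for angiopoietins and Tie1 its partner, which binds no angiopoietin by itself and modulates Tek. Endoglin, from Eng, is a co-receptor for bone morphogenetic protein 9 and related ligands. VE-cadherin, from Cdh5, holds endothelial junctions together. Vwf makes von Willebrand factor, which endothelial cells and platelets store and release for clotting. Emcn encodes endomucin, a surface sialomucin, Robo4 an endothelial receptor of the roundabout family, and Egfl7 a secreted protein of the vessel wall.

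Many endothelial promoters are bound by factors of the ETS family, which recognise a GGAA core, so the promoters of 3 receptors whose values are given below are shown first. They run from 250 bases before to 50 bases after the start in RefSeq (GRCr8), 5′ to 3′ on the strand of the gene, with each AGGAAG, on either strand, in capitals. Eng is shown because it alone passed the test, Flt1 as a VEGF receptor and Tie1 as the member whose ratio to Tek separated the groups. Eng lies at chr3:36332029-36332328, plus strand, Flt1 at chr12:12333180-12333479, plus strand, and Tie1 at chr5:137304932-137305231, minus strand.
Eng: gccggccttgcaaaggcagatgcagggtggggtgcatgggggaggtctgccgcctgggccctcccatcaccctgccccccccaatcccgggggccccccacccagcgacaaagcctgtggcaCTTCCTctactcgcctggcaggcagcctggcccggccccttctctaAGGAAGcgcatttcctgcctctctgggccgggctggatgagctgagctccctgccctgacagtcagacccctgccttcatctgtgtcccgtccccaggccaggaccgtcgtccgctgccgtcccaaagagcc
Flt1: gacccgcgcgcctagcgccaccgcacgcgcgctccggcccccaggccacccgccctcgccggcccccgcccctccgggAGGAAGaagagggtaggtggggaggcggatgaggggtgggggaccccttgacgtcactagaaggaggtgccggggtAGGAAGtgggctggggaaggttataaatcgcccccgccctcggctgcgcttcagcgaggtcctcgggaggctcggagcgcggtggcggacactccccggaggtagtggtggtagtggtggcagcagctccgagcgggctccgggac
Tie1: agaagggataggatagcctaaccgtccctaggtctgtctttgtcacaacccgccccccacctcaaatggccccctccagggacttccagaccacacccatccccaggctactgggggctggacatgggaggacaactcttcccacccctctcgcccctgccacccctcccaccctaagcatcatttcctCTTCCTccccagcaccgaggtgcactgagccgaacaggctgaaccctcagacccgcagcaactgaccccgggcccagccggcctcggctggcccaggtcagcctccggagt

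RefSeq held promoter windows for 7 of the 10 genes, 8 windows in all since Egfl7 has 2, and none was matched for Cdh5, Tek and Vwf. AGGAAG, read on both strands, was in 6 of the 8 windows (Emcn, Eng, Flt1, Robo4, Tie1 and 1 of the Egfl7 windows), against 34.5% of all 33469 windows. The bare core GGAA, which AGGAAG contains, was in all 8 and in 95.8% of all windows. CCGGAA, another form of the core, was in 1 (Kdr) and in 15.0% of all windows. The longer CCGGAAGT, the GATA motif AGATAA and the E-box CACGTG were in 0 of the 8, against 3.81%, 11.6% and 6.42% of all windows. TATAAA was in 1 (Flt1) and 14.2%, and the GC box GGGCGG in windows of 4 genes (Egfl7, Flt1, Kdr and Tie1) and 33.1%. These 8 motifs were searched after the expression values were known, and a match describes letters only.

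Egfl7 also hosts the endothelial microRNA miR-126, whose mature forms lie inside the gene in GRCr8 (chromosome 3, plus strand). They are shown because Egfl7 is known for this microRNA as much as for its protein, with the seed (bases 2 to 8) in capitals. The microRNA itself was not analysed here.
rno-miR-126a-5p: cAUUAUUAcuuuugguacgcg
rno-miR-126a-3p: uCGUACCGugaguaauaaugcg

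Values are FPKM (fragments scaled to transcript length and library size), so levels are per length and can be set side by side between genes. Aligned sequence, read from coverage divided by FPKM in the deposited lncRNA table, was 6.77 to 8.86 Gb per library. From it, the mean coverage per base was computed as 85.0 to 152 reads for Eng across the 8 libraries and as low as 2.84 for Emcn and 3.75 for Kdr, so those low genes are the least precise. Most genes of these libraries were higher with nitroglycerin: the median log2 difference over 12977 tested rows was 0.30, and 86.6% were above 0. The log2 difference of each tested member is therefore given as deposited and after median-of-ratios rescaling, which divides each library by the typical ratio of its genes and brought that median to 0.01. Levels of all genes are FPKM as deposited unless called rescaled. In a bulk tissue, fewer cells of a type and less RNA per cell cannot be told apart.

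The 9 genes spanned more than an order of magnitude in control aortas, on the FPKM scale. Vwf stood highest at 23.6 ± 9.12 FPKM (mean ± SD, n = 4 here and below) and Eng next at 11.1 ± 0.693. Tek (4.51 ± 1.27), Tie1 (4.17 ± 1.64), Egfl7 (2.97 ± 0.683) and Cdh5 (2.88 ± 0.685) followed, then Flt1 (1.83 ± 0.899). Kdr (0.718 ± 0.286) and Emcn (0.685 ± 0.199) were lowest. The control ranges of neighbours in this order overlapped except between Eng and Tek and between Flt1 and Kdr. In nitroglycerin aortas the ranges of Tek and Tie1, of Tie1 and Egfl7, and of Vwf and Eng no longer overlapped, while those of Flt1 and Kdr did. Cdh5 exceeded Egfl7 in 3 of 4 libraries of each group.

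Of the 10 genes, 8 were tested, since Emcn had at least 1 FPKM in 3 libraries where 4 were required and Robo4 had no row. Kdr passed that filter through 3 nitroglycerin libraries and 1 control, so the filter favoured a difference for it. Tests used limma on log2(FPKM + 1) with Benjamini-Hochberg adjustment over all 12977 rows, and called a gene at an adjusted p under 0.05. Eng rose and was the single member called, 1 of 8, where 1.29% of all rows were called higher. No member was called lower (0.0616% of all rows were). At an unadjusted p under 0.05, 5 of 8 were higher (Eng, Cdh5, Tek, Kdr and Flt1), against 34.1% of all rows. The groups did not overlap, with nitroglycerin higher, for 2 of 8 (Eng and Tek), against 24.2% of all rows. The median log2 difference of the 8 was 0.54, beside 0.30 for all rows, and all 8 were above 0. After rescaling 0 of 8 were called (0.0308% of all rows were called higher and 0.1% lower). Tek, 1 of 8, was higher at an unadjusted p under 0.05 (5.5% of all rows), and 0 of 8 were lower (6.44% of all rows). None of the 8 was lower without overlap (4.45% of all rows), and 6 of 8 were above 0 (52.4% of all rows), with a median of 0.21.

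**Figure D1:**
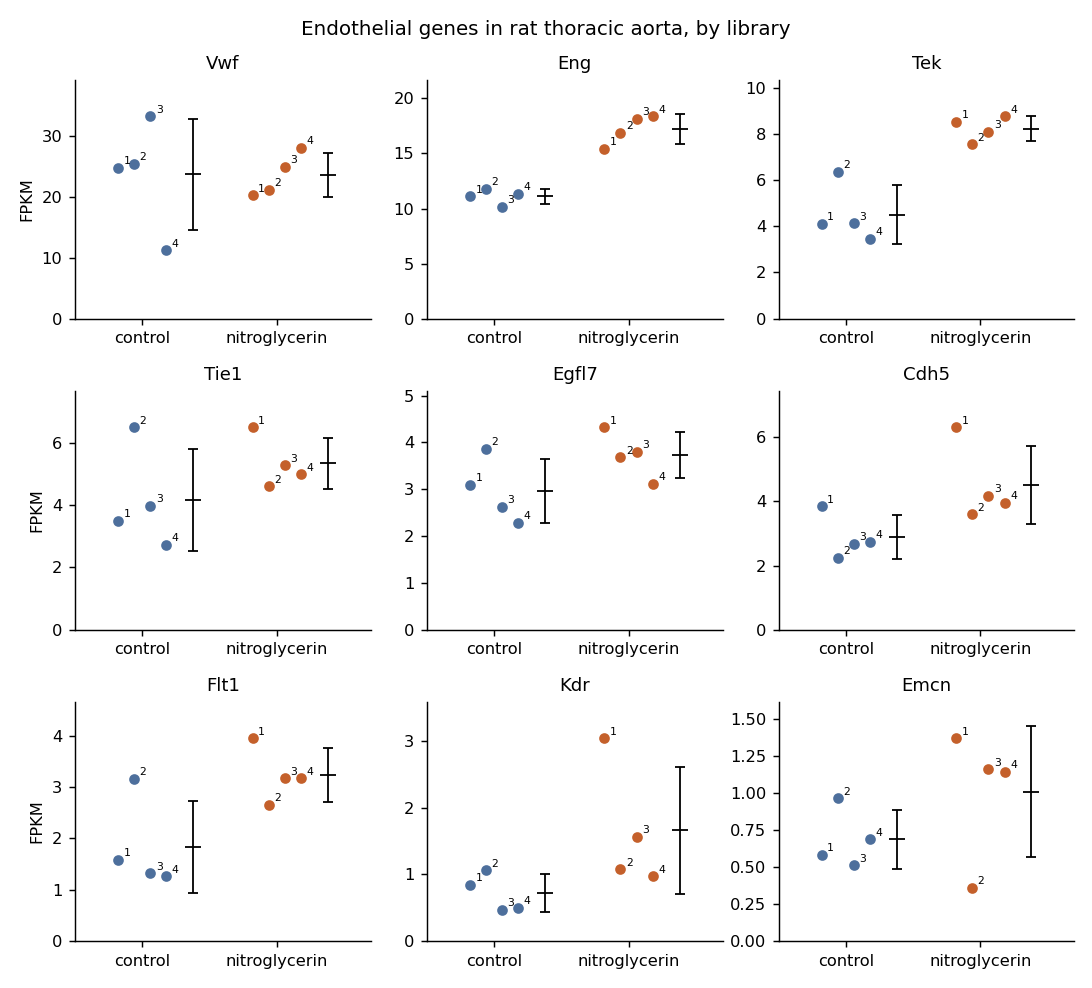
FPKM (vertical axis, from 0) of the 9 endothelial genes with a row, in each of 4 control and 4 nitroglycerin libraries (points, numbered by replicate), with the mean and SD as a bar at the side. Eng and Tek lie higher in every nitroglycerin library than in any control, while the 4 nitroglycerin values of Vwf lie inside its control range.

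Endoglin, the co-receptor, was the one member called. Eng read 11.1, 11.8, 10.2 and 11.4 FPKM in control replicates 1 to 4 and 15.4, 16.9, 18.1 and 18.4 FPKM in nitroglycerin replicates 1 to 4. Every nitroglycerin library lay above every control, and the means stood 1.55-fold apart. The log2 difference was 0.59 (SE 0.11; limma, Benjamini-Hochberg adjusted p = 0.0492), above the differences of 89.4% of all rows. After rescaling it was 0.22 (SE 0.11, limma adjusted p = 0.459), the ranges met (11.2 to 15.0 and 13.3 to 15.8 rescaled FPKM), and it lay above 82.9% of all rows. The call as deposited was lost without any 1 of the 8 libraries (limma adjusted p from 0.0512 to 0.133), although the log2 difference stayed between 0.55 and 0.64 in those fits.

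Genes of the pathway around endoglin gave 0 calls among 13 tested of 15 listed, with 11 of 13 above 0 and a median log2 difference of 0.32 as deposited and 0.03 after rescaling. As deposited, 3 of 13 were higher without overlap, against 24.2% of all rows. The ligand genes Gdf2 (bone morphogenetic protein 9) and Bmp10 stayed below 1 FPKM in every library. Acvrl1, the ALK1 receptor that pairs with endoglin, stood at 10.3 ± 2.80 FPKM in controls and 14.3 ± 1.72 with nitroglycerin. Among the receptors of the wider TGF-beta family, Tgfbr3 (betaglycan, the relative of endoglin) stood at 20.8 ± 3.99 and 38.5 ± 8.88 FPKM and Tgfbr2 at 17.1 ± 2.05 and 25.2 ± 3.05 FPKM, both without overlap and neither past the test over all rows (limma adjusted p = 0.0615 and 0.0622). After rescaling the log2 differences were 0.47 for Tgfbr3, 0.17 for Tgfbr2 and 0.11 for Acvrl1, and the groups of all 3 overlapped (limma adjusted p = 0.364, 0.550 and 0.851). Mmp14, a membrane metalloprotease that can shed endoglin, stood at 15.5 ± 2.93 and 14.2 ± 1.78 FPKM, a log2 difference of -0.11 with overlap. After rescaling it was -0.47, with every nitroglycerin library (11.4 to 13.6 rescaled FPKM) below every control (14.8 to 19.0). It did not pass the test over all rows (limma adjusted p = 0.148). Mmp14 was the 1 of 13 lower without overlap after rescaling, against 4.45% of all rows.

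The angiopoietin receptors differed from each other in how they lay across the groups. Tek read 4.11, 6.35, 4.12 and 3.44 FPKM in controls and 8.51, 7.54, 8.09 and 8.76 FPKM with nitroglycerin. All 4 nitroglycerin libraries exceeded the highest control, replicate 2. Its log2 difference of 0.77 (SE 0.16) just missed the threshold over all rows (limma adjusted p = 0.0535). After rescaling it was 0.44 (SE 0.13, limma adjusted p = 0.260), and Tek was the single member whose groups still did not overlap, at 3.81 to 6.37 and 6.81 to 7.35 rescaled FPKM, where 3.78% of all rows were higher without overlap. Without control replicate 2 the difference as deposited was 0.92 and passed (limma adjusted p = 0.0468). Tek was also called with robust eBayes, under a stricter filter on mean FPKM, and with array weights (limma adjusted p = 0.0229 for the last).

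Tie1 read 3.50, 6.50, 3.97 and 2.72 FPKM in controls and 6.50, 4.61, 5.28 and 4.99 FPKM with nitroglycerin. Control replicate 2 reached the level of the highest nitroglycerin library, so the ranges overlapped. The log2 difference was 0.34 (SE 0.21) with a limma adjusted p of 0.262, and 0.02 once rescaled (adjusted p = 0.982), with a 95% interval as deposited from -0.14 to 0.81.

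Because a ratio of 2 genes within a library does not depend on how the library was scaled, 10 ratios between members were set against each other between groups with an exact permutation test each (two-sided, 70 splits of 4 against 4, smallest p 0.0286). Tie1 over Tek was 0.851, 1.02, 0.963 and 0.789 in controls and 0.763, 0.611, 0.653 and 0.570 with nitroglycerin. Every control ratio lay above every nitroglycerin ratio, at means of 0.907 ± 0.106 and 0.649 ± 0.0831. This reached the smallest p the exact permutation test can give, 0.0286, which became 0.286 after Benjamini-Hochberg adjustment over the 10 ratios, so it failed the correction. At 4 against 4, no lone ratio among 10 could have passed it. The log2 difference of this ratio stayed between -0.56 and -0.42 with any 1 library left out.

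Partners of these receptors gave 0 calls among 3 tested of 6 listed, with a median log2 difference of 0.46, and 0.15 after rescaling. As deposited, 1 of the 3 was higher without overlap, against 24.2% of all rows. Ptprb, the phosphatase VE-PTP that acts on Tek and VE-cadherin, stood at 7.10 ± 1.76 and 11.6 ± 2.12 FPKM without overlap (limma adjusted p = 0.0685), and after rescaling its log2 difference of 0.64 was 0.29 with overlap (adjusted p = 0.493). Angpt2, a context-dependent antagonist ligand stored with von Willebrand factor, stood at 3.70 ± 1.5 and 5.43 ± 1.60 FPKM. Svep1, a matrix protein that binds Tie1, stood at 6.24 ± 1.00 and 7.32 ± 0.677 FPKM (log2 difference 0.21, and -0.13 after rescaling), and the ligand gene Angpt4 at 0.535 ± 0.213 and 1.00 ± 0.362 FPKM, under the filter.

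**Figure D2:**
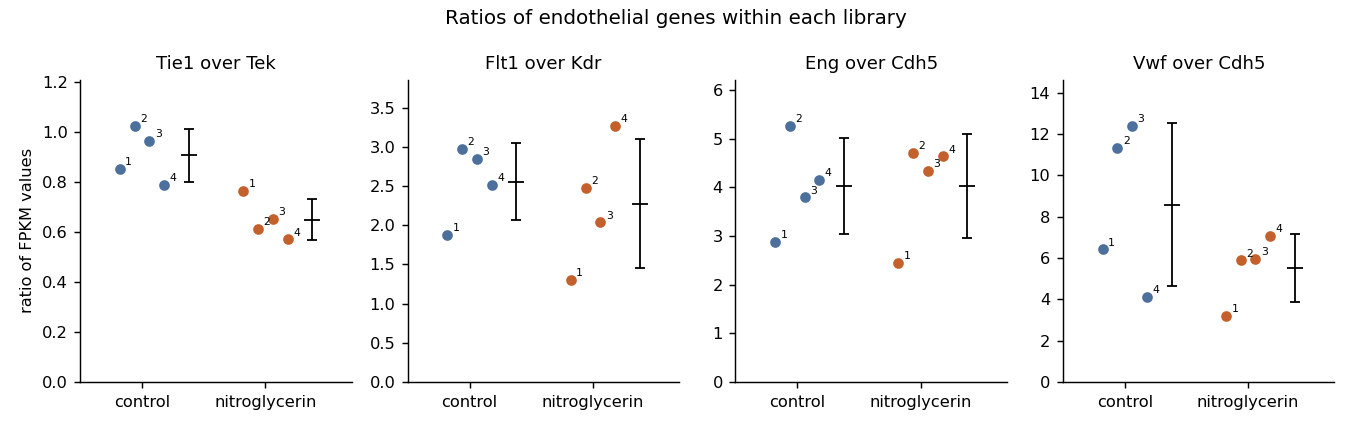
Ratio of the FPKM values of 2 genes within each library (vertical axis, from 0), for 4 control and 4 nitroglycerin libraries (points, numbered by replicate), with mean and SD at the side. Tie1 over Tek lies between 0.789 and 1.02 in controls and between 0.570 and 0.763 with nitroglycerin, while the groups overlap in the other 3 ratios drawn.

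The VEGF receptors were low and varied more. Flt1 read 1.58, 3.17, 1.32 and 1.26 FPKM in controls and 3.95, 2.66, 3.17 and 3.17 FPKM with nitroglycerin. Control replicate 2 reached the nitroglycerin range and the other 3 controls lay below it. The log2 difference was 0.62 (SE 0.20) with a limma adjusted p of 0.0835, and 0.35 once rescaled (adjusted p = 0.494). Without control replicate 2 it was 0.82 (limma adjusted p = 0.0508).

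Kdr read 0.841, 1.06, 0.465 and 0.501 FPKM in controls and 3.04, 1.07, 1.56 and 0.970 FPKM with nitroglycerin. Nitroglycerin replicate 1 was far above the rest, and replicate 4 of that group lay below control replicate 2. The log2 difference was 0.58 (SE 0.25) with a limma adjusted p of 0.134, 0.39 once rescaled (adjusted p = 0.570), and 0.36 as deposited without nitroglycerin replicate 1 (adjusted p = 0.270). On linear FPKM the means were 2.31-fold apart, more than for any other member, while the pseudocount of 1 held the log2 value down because the gene is low. Flt1 exceeded Kdr in all 8 libraries, by a ratio of 2.55 ± 0.493 in controls and 2.27 ± 0.823 under nitroglycerin (exact permutation test, two-sided, n = 4 per group: p = 0.543, and 0.794 adjusted over 10 ratios).

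VEGF ligands and co-receptors gave 0 calls among 5 tested of 9 listed, with all 5 above 0 and a median log2 difference of 0.47, and 0.19 after rescaling. Vegfa, the main ligand of Kdr, read highest in nitroglycerin replicate 1 and stood at 3.36 ± 1.72 and 5.65 ± 3.25 FPKM. Pgf (placental growth factor), a ligand of Flt1, stood at 3.87 ± 3.33 and 5.48 ± 3.80 FPKM. The neuropilin co-receptors stood at 3.15 ± 0.935 and 5.04 ± 1.25 FPKM for Nrp1 and at 2.25 ± 0.487 and 3.56 ± 0.991 FPKM for Nrp2, with log2 differences of 0.55 and 0.47 that were 0.24 and 0.19 after rescaling.

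The junction and surface proteins did not pass either. Cdh5 read 3.85, 2.24, 2.68 and 2.73 FPKM in controls and 6.31, 3.59, 4.18 and 3.97 FPKM with nitroglycerin. Control replicate 1 lay above 1 nitroglycerin library, and the other 3 controls lay below all 4. The log2 difference was 0.50 (SE 0.18, limma adjusted p = 0.0953), 0.19 after rescaling (adjusted p = 0.772), and 0.36 without nitroglycerin replicate 1 (adjusted p = 0.182). Set over Cdh5 within each library, Eng stood at 4.02 ± 0.984 and 4.03 ± 1.07, and no other member separated the groups relative to Cdh5 (exact permutation p from 0.229 to 0.971 over these 8 ratios).

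Genes of the VE-cadherin complex and other junction proteins gave 0 calls among 10 tested of 11 listed, with 8 of 10 above 0 and a median log2 difference of 0.25, and -0.06 after rescaling. The catenins that anchor cadherins stood at 50.5 ± 7.05 and 55.2 ± 2.77 FPKM for Ctnna1, at 12.9 ± 1.92 and 16.2 ± 1.36 FPKM for Ctnnb1 and at 30.4 ± 3.96 and 28.2 ± 5.27 FPKM for Jup (plakoglobin). Tjp1, the tight junction scaffold ZO-1, stood at 8.64 ± 1.64 and 11.1 ± 1.44 FPKM. The log2 difference turned after rescaling for Ctnna1, from 0.14 to -0.25, and for Ctnnb1 and Tjp1, from 0.31 to -0.05 and from 0.34 to -0.01, while that of Jup went from -0.11 to -0.49. After rescaling, every nitroglycerin library lay below every control for Ctnna1 and Jup, 2 of 10, against 4.45% of all rows. Neither passed the test over all rows (limma adjusted p = 0.332 and 0.173). F11r, 1 of 10, lay the other way without overlap after rescaling, against 3.78% of all rows. As deposited, 3 of 10 were higher without overlap, against 24.2% of all rows. F11r was among them, at 3.15 ± 0.680 and 5.82 ± 1.15 FPKM. Its log2 difference of 0.72 was 0.40 after rescaling (limma adjusted p = 0.0573 and 0.316). Ctnna1, Ctnnb1, Jup and Tjp1 are shared with smooth muscle and fibroblasts, and all 4 exceed Cdh5 in these aortas.

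Emcn read 0.580, 0.962, 0.510 and 0.686 FPKM in controls and 1.37, 0.359, 1.16 and 1.14 FPKM with nitroglycerin. Nitroglycerin replicate 2 was the lowest of all 8 and the other 3 were the highest. It was under the filter, and with no filter its log2 difference was 0.23 (limma adjusted p = 0.546). The file names 2 rows LOC100911068 and describes them as roundabout homolog 4-like, and RefSeq lists that gene ID under the symbol Robo4. They are outside the named set, and reads may be split between near-identical copies, so their values are uncertain. The first (ENSRNOG00000049289) read 0.440, 0.389, 0.285 and 0.278 FPKM in controls and 0.901, 0.387, 0.382 and 0.341 FPKM with nitroglycerin. The second (ENSRNOG00000050964) read 0.520, 0.515, 0.323 and 0.319 FPKM and 1.05, 0.420, 0.536 and 0.470 FPKM. Both rows overlap between groups and stand highest in nitroglycerin replicate 1.

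Of 7 Slit and Robo genes, 4 were tested and 0 were called, with a median log2 difference of 0.11, and -0.19 after rescaling. Slit3, a secreted ligand of roundabout receptors, was the most abundant at 28.9 ± 6.57 and 31.4 ± 7.93 FPKM, above its relative Slit2 at 1.52 ± 0.395 and 1.71 ± 0.303 FPKM. Robo1 stood at 1.8 ± 0.770 and 1.5 ± 0.154 FPKM, and Unc5b, a receptor known to bind Robo4, at 4.16 ± 0.315 and 5.17 ± 1.32 FPKM.

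Of the 8 tested genes, Vwf and Egfl7 had the smallest log2 differences as deposited. Vwf read 24.7, 25.4, 33.2 and 11.2 FPKM in controls and 20.3, 21.1, 25.0 and 28.1 FPKM with nitroglycerin. Control replicate 4 was lowest of all 8 and control replicate 3 highest, so the nitroglycerin libraries lay inside the control range. The log2 difference was 0.08 (SE 0.29, limma adjusted p = 0.852), with a 95% interval from -0.58 to 0.74, and it was -0.29 after rescaling (adjusted p = 0.749) and -0.23 without control replicate 4 (adjusted p = 0.392). Vwf over Cdh5 was 8.56 ± 3.95 in controls and 5.53 ± 1.64 under nitroglycerin (exact permutation test, two-sided, n = 4 per group: p = 0.229, adjusted 0.762). Egfl7 read 3.09, 3.87, 2.62 and 2.29 FPKM in controls and 4.32, 3.68, 3.80 and 3.12 FPKM with nitroglycerin, with overlap through control replicate 2. Its log2 difference was 0.26 (SE 0.14, limma adjusted p = 0.212), close to the median of all rows, and -0.03 after rescaling (adjusted p = 0.958).

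Genes tied to von Willebrand factor gave 0 calls among 5 tested of 11 listed, with all 5 above 0 and a median log2 difference of 0.44, and 0.12 after rescaling; Angpt2 is in this list too. F8, the clotting factor that von Willebrand factor carries, stood at 6.61 ± 0.814 and 8.57 ± 0.517 FPKM. Cd63, a membrane protein of its storage granules, stood at 42.3 ± 8.30 and 53.5 ± 7.14 FPKM, and Rab27a, which guides their release, at 7.64 ± 4.53 and 10.5 ± 5.48 FPKM. Of the platelet genes in the list, Pf4 (platelet factor 4) read 1.99, 2.11, 2.01 and 1.54 FPKM in controls. It read 1.90, 6.36, 5.03 and 2.65 FPKM with nitroglycerin, with overlap through nitroglycerin replicate 1. Its log2 difference of 0.68 did not pass (limma adjusted p = 0.119), and it was 0.40 after rescaling (adjusted p = 0.629). Itga2b and Gp1ba stayed below 1 FPKM in every library and Ppbp at or near 0. Thbs1, also in the list, stood at 0.277 ± 0.119 and 1.24 ± 0.669 FPKM without overlap. It was under the filter and was not tested. Among tested rows, 24.2% were higher without overlap. The part of platelet RNA in the Vwf values was not tested.

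**Figure D3:**
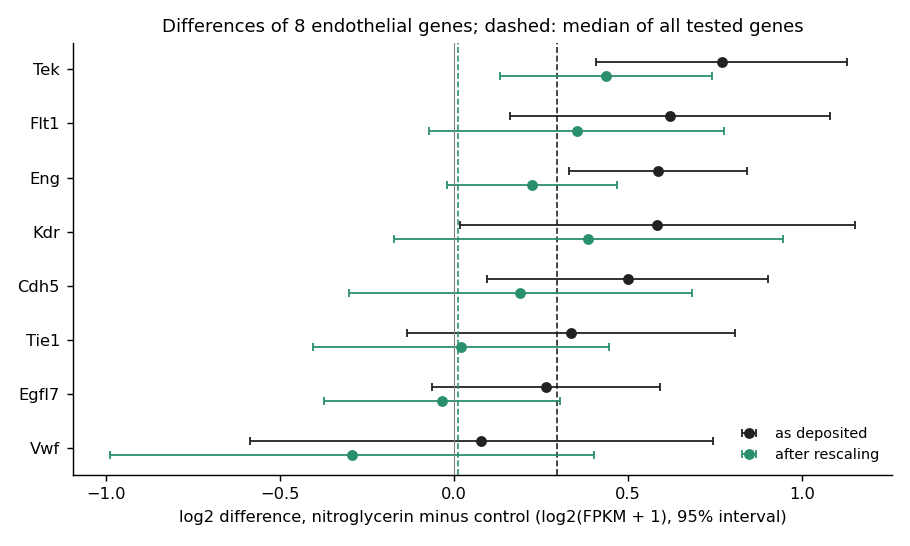
Log2 difference of nitroglycerin minus control on log2(FPKM + 1) (horizontal axis) for the 8 tested endothelial genes, with 95% intervals from limma, as deposited (black) and after rescaling (green). Dashed lines mark the median of all 12977 rows at 0.30 and 0.01; the interval of Tek is the only one of the 8 that stays above 0 after rescaling.

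Among other endothelial markers, 2 of 14 tested (of 22 listed) rose and none fell, where 1.29% of all rows were called higher and 0.0616% lower. In this list 13 of 14 were above 0, against 86.6% of all rows. The median log2 difference was 0.43, and 0.13 after rescaling, where 0 were called. Esam, an adhesion molecule of endothelial junctions, read 4.12, 3.63, 4.17 and 3.68 FPKM in controls and 9.78, 7.6, 9.12 and 6.43 FPKM with nitroglycerin, 0.90 higher in log2 (SE 0.14; limma, Benjamini-Hochberg adjusted p = 0.0413). Calcrl, the receptor for calcitonin gene-related peptide and adrenomedullin, read 1.69, 2.68, 1.68 and 1.82 FPKM and 4.60, 3.75, 3.48 and 4.18 FPKM, 0.76 higher in log2 (SE 0.14; limma adjusted p = 0.0492). Neither gene's groups overlapped as deposited, where 24.2% of all rows were higher without overlap. After rescaling the log2 differences of Esam and Calcrl were 0.57 and 0.48 (limma adjusted p = 0.211 and 0.162). The rescaled groups of Esam overlapped and those of Calcrl did not, where 3.78% of all rows were higher without overlap. With 1 library left out, the adjusted p of Esam ran from 0.0453 to 0.113 and that of Calcrl from 0.0468 to 0.136, and the call held only without nitroglycerin replicate 2 for Esam and without that library or control replicate 2 for Calcrl.

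The other abundant markers of that list did not pass. Ace, the angiotensin-converting enzyme gene, stood at 27.1 ± 9.79 and 34.3 ± 3.79 FPKM and Mmrn2, an endothelial matrix glycoprotein, at 6.41 ± 2.06 and 7.35 ± 0.247 FPKM. Thbd (thrombomodulin) read 2.34, 29.7, 0 and 1.46 FPKM in controls and 33.2, 0, 35.3 and 0 FPKM with nitroglycerin, so it was listed at 0 in 1 control and 2 nitroglycerin libraries, and such zeros can be failed estimates. The Cd34 symbol is carried by an annotated row, at 16.1, 26.1, 14.4 and 10.8 FPKM in controls and 21.4, 23.6, 31.5 and 30.6 FPKM with nitroglycerin, and by a more abundant assembled locus, at 19.2, 32.4, 18.3 and 13.1 FPKM and 0, 29.0, 38 and 36.9 FPKM. The zero of nitroglycerin replicate 1 at the assembled locus has no counterpart in the annotated row. The assembled locus, used for the list, was its only tested row below 0, at a log2 difference of -0.51. The annotated row had 0.69.

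Endothelial transcription factors gave 0 calls among 15 tested of 18 listed, with 13 of 15 above 0 and a median log2 difference of 0.27, and -0.0004 after rescaling. As deposited, 2 of 15 were higher without overlap, against 24.2% of all rows. Erg, the ETS factor most tied to endothelial identity, read 2.27, 4.12, 2.78 and 4.84 FPKM in controls and 8.90, 6.07, 6.03 and 9.19 FPKM with nitroglycerin, without overlap; its log2 change was 0.94 (SE 0.22) with a limma adjusted p of 0.0581, and 0.62 once rescaled (adjusted p = 0.246). Elk3, another ETS factor, stood at 3.66 ± 0.917 and 4.31 ± 0.454 FPKM, the flow-responsive factor Klf4 at 6.60 ± 4.57 and 9.37 ± 4.14 FPKM, and an assembled Foxo1 locus without an annotated transcript at 7.68 ± 2.04 and 9.86 ± 3.59 FPKM.

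**Figure D4:**
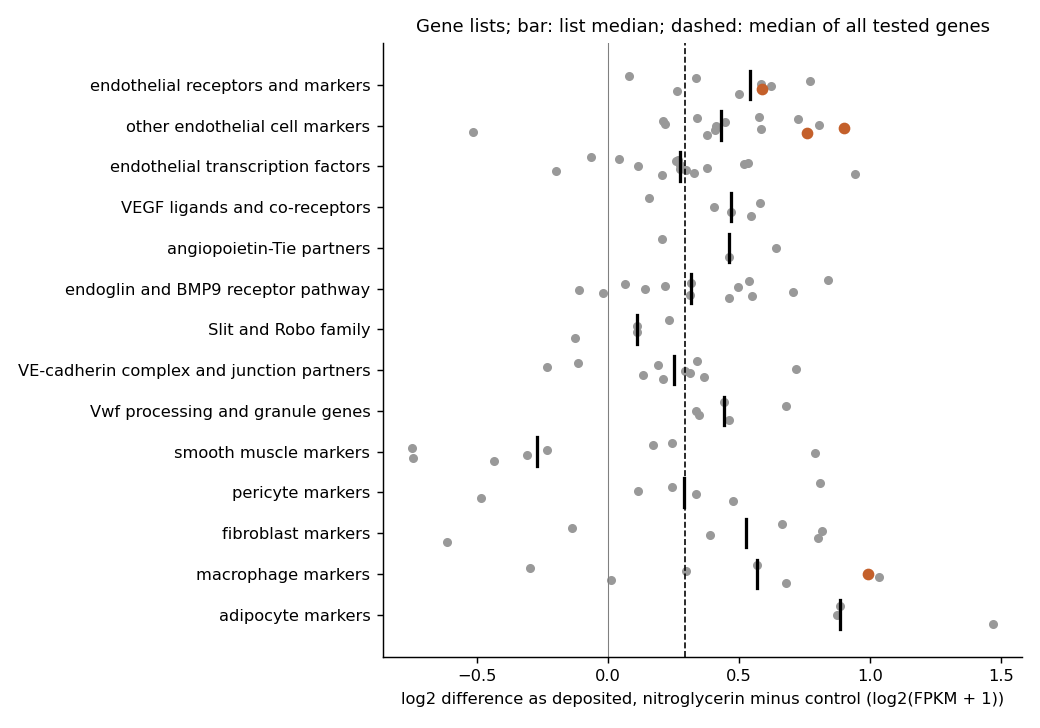
Log2 difference of nitroglycerin minus control as deposited (horizontal axis) for the tested genes of each list with 3 or more tested (points; those past an adjusted p of 0.05 in orange), with the list median as a bar and the median of all rows, 0.30, dashed. The orange points are Eng, Esam, Calcrl and the macrophage gene Cd163, and the smooth muscle median lies below 0.

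The libraries themselves differed in how high the endothelial genes stood. Control replicate 2 was the highest control for 7 of 9 members and control replicate 4 the lowest for 5. Nitroglycerin replicate 1 was highest in its group for 6 of 9 (Cdh5, Tie1, Kdr, Flt1, Emcn and Egfl7) and lowest for Eng and Vwf, and nitroglycerin replicate 2 was lowest for 5. Adipocyte markers stood apart in the same library, nitroglycerin replicate 1. The 7 adipocyte markers summed to 137 FPKM there, against 19.2 to 23.8 FPKM in the other nitroglycerin libraries and 6.71 to 25.7 FPKM in controls, and Adipoq read 15.0 FPKM against at most 1.8 FPKM elsewhere. The part of adipose tissue in the endothelial values was not tested. Without that library the log2 differences were 0.64 for Eng, 0.75 for Tek, 0.54 for Flt1, 0.36 for Kdr and Cdh5, 0.25 for Tie1, 0.20 for Egfl7 and 0.15 for Vwf, and none was called by limma.

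Markers of other cell types moved unevenly with the groups. The 8 smooth muscle markers summed to 2193 to 2857 FPKM in controls and 1341 to 2736 FPKM with nitroglycerin. Acta2 made up most of that sum, at 2075 ± 270 and 1602 ± 585 FPKM. Of the list, 0 of 8 were called and 3 of 8 were above 0, with a median log2 difference of -0.27, and -0.64 after rescaling. Smooth muscle myosin Myh11 stood at 151 ± 12.7 and 130 ± 21.5 FPKM and the light chain gene Myl9 at 152 ± 13.6 and 92.7 ± 27.6 FPKM. Their log2 differences were -0.23 and -0.75, and -0.62 and -1.13 after rescaling, where neither gene's groups overlapped (limma adjusted p = 0.177 and 0.0949). The 3 above 0 were Lmod1, Smtn and Myocd. Lmod1 was higher without overlap as deposited, against 24.2% of all rows, at a log2 difference of 0.79 (limma adjusted p = 0.0598). After rescaling it was 0.43 with overlap (limma adjusted p = 0.382). Smtn and Myocd had 0.25 and 0.17, and -0.13 and -0.19 after rescaling. Of 6 pericyte markers 0 were called (median 0.29, and -0.05 after rescaling; summed 113 to 139 and 127 to 154 FPKM), and of 6 fibroblast markers 0 were called (median 0.53, and 0.16 after rescaling; summed 1708 to 2482 and 1417 to 1543 FPKM). The collagen gene Col1a1 made up most of the fibroblast sum, at 1779 ± 302 and 1151 ± 33.5 FPKM. It was lower without overlap, against 0.478% of all rows, at a log2 difference of -0.61 (limma adjusted p = 0.0697). After rescaling the groups of Col1a1 still did not overlap, against 4.45% of all rows lower without overlap. They ran from 1658 to 2270 and from 925 to 1074 rescaled FPKM (limma adjusted p = 0.0822). The log2 difference was above 0 for 4 of the 6, so the fibroblast sum mainly follows Col1a1 and not the list. Of 7 macrophage markers, Cd163 rose, from 1.91 ± 0.194 to 4.92 ± 1.48 FPKM, where 1.29% of all rows were called higher. Its limma, Benjamini-Hochberg adjusted p was 0.0492, and 0.0306 to 0.136 with 1 library left out, where the call held in 1 of 8 fits. Cd163 was not called after rescaling (limma adjusted p = 0.160). The macrophage list had a median of 0.57, and 0.23 after rescaling, and summed to 43.0 to 107 and 63.2 to 108 FPKM. In it 6 of 7 were above 0, and 4 of 7 after rescaling. Lyz2, the most abundant on average, stood at 52.0 ± 26.2 and 41.3 ± 19.8 FPKM. Its log2 difference was -0.30, and -0.67 after rescaling. That of C1qa, the next, was 0.01, and -0.33 after rescaling. Of 3 tested adipocyte markers 0 were called (median 0.88, and 0.63 after rescaling).

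Markers of lymphatic endothelium were uneven. Lyve1, a hyaluronan receptor that macrophages can share, ran from 1.7 to 3.90 FPKM in controls and from 1.72 to 4.98 FPKM with nitroglycerin, and the chemokine gene Ccl21 from 0.107 to 3.08 and from 1.96 to 5.53 FPKM, so both reached the levels of Flt1 and exceeded Kdr and Emcn on average. Prox1 and Flt4, its defining factor and receptor, stood at most at 0.243 and 1.27 FPKM in any library, both in nitroglycerin replicate 1, and 2 of 6 lymphatic markers were tested, Lyve1 and Ccl21, and 0 called (median 0.56, and 0.29 after rescaling; summed 3.40 to 8.75 and 6.48 to 14.0 FPKM). Of 6 lymphocyte and leukocyte markers 5 stayed below 1 FPKM and 1, Ptprc, was tested and not called (summed 0.665 to 1.09 and 0.876 to 1.76 FPKM). Erythroid markers summed to 38.6 to 89.7 and 32.4 to 73.3 FPKM, with 0 of 2 tested called (median -0.11, and -0.48 after rescaling). Schwann cell markers summed to 1.56 to 1.97 and 1.79 to 4.10 FPKM, highest in nitroglycerin replicate 1, and 0 were tested. The part of these cell types in the endothelial values was not tested.

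Across the 8 libraries, the rows outside these lists most like the mean standardised profile of the 8 tested members were, among 11213 named rows, Pear1, Plxna2, Fkbp2, Itgb4 and Fgd5, with Pearson r of 0.996, 0.984, 0.982, 0.982 and 0.977. Pear1 encodes a platelet endothelial aggregation receptor and Fgd5 an exchange factor known from endothelial cells. Plxna2 is a semaphorin receptor, Itgb4 an integrin chain and Fkbp2 a folding enzyme of the endoplasmic reticulum. All values of a library share its scaling and both groups enter, so these r describe likeness only. Pear1 stood at 2.62 ± 0.538 and 4.05 ± 0.424 FPKM and Fgd5 at 4.11 ± 0.822 and 5.92 ± 0.499 FPKM. Among the members themselves, r with the mean of the others was 0.938 for Flt1, 0.932 for Tek, 0.878 for Egfl7, 0.841 for Tie1, 0.827 for Kdr, 0.692 for Eng and 0.596 for Cdh5, and 0.218 for Vwf, which stood apart.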

How the data were processed

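RNA of 8 aorta libraries, 4 per group, was depleted of ribosomal RNA using an Epicentre Ribo-Zero Gold kit; the labels' protocols, the source of this, also speak of an adipose type. Bowtie 0.12.2, StringTie 1.3.0 and HISAT2 2.0 and the builds mm8 and Rnor_6.0 are listed, without roles, per the submitters' processing notes. The authors deposited FPKM per gene and library, and, for lncRNA transcripts, FPKM and coverage per base (a signal), per the file headers. FPKM are relative, so abundant transcripts lower the values of the rest. Reads were not analysed here, so precision rests on the spread of 4 libraries. Whether counting used strand is not given in the sources used here.

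Each symbol's row of highest mean FPKM was used. Rows reaching 1 FPKM in 4 or more libraries (12977 of 27742) were tested as log2(FPKM + 1) with limma 3.58.1 (R 4.3.3), with a mean-variance trend, Benjamini-Hochberg adjustment and a threshold of 0.05. Fold changes on this scale understate those of low genes. Rescaling factors, from tested rows above 0 in every library, ran from 0.742 to 0.996 in controls and from 1.07 to 1.22 with nitroglycerin. Of 11 ratios planned, 10 were computed, since Robo4 had no row. Named genes were all members, and of each of the 17 other lists the 4 of highest mean (not all are printed for lists of other cell types) and any called, plus 5 rows of like profile. Genes named outside this rule, such as Pf4, Itga2b, Gp1ba, Thbs1, Ppbp, Gdf2, Bmp10, Lmod1 and F11r, were chosen after their values were seen. The members and lists were chosen with earlier results of these data known. On simulated data of 12977 rows, changes of 0.585, 1 and 2 on the log2 scale were recovered at 11.9%, 62.7% and 86.4%, with 5 false among 112 calls. The simulation drew independent noise for each row and held no shared shift between groups. These data have such a shift, so the simulated rates need not hold for them. Plots were made in matplotlib 3.10.9 under Python 3.11.15. Alternatives covered the pseudocount, filters, scaling, weights, robust eBayes, summed rows, a replicate block and leaving out each library.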

Additional observations from a re-analysis of the deposited data

Results flagged for a closer look

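Of 48 groups of 4 values examined (members, called endothelial and macrophage genes, the Robo4-like rows and the ratios), 7 (14.6%) had 1 library set well apart from its group; by chance about 1 group in 20 would. Ratios with the same denominator share its values, so these are not 7 separate events. Control replicate 2 had 3.17 FPKM of Flt1 (3.165 before rounding) against 1.26 to 1.58 in the other controls, and 2.68 FPKM of Calcrl (2.681) against 1.68 to 1.82. That library also had a Flt1 over Cdh5 ratio of 1.41 against 0.410 to 0.494 and a Kdr over Cdh5 ratio of 0.474 (0.4735) against 0.174 to 0.219. In nitroglycerin replicate 1 there were 0.901 FPKM (0.9011) of the Robo4-like row ENSRNOG00000049289 against 0.341 to 0.387, an Eng over Cdh5 ratio of 2.44 (2.441) against 4.33 to 4.70, and a Tie1 over Cdh5 ratio of 1.03 (1.029) against 1.26 to 1.28.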

How the results depend on the processing

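Against 1 member called as deposited, there were 4 with array weights (Eng, Cdh5, Tek and Flt1), 2 with robust eBayes and 2 with the stricter filter (Eng and Tek), and 0 with median-of-ratios rescaling, quantile normalization, a pseudocount of 0.1, no filter, summed rows or the replicate block, where limma still gave 1, 2, 5, 4, 5 and 5 members at an unadjusted p under 0.05. Leaving out 1 library gave 0 to 1, the 1 being Tek without control replicate 2. Against 175 genes called over all rows, there were 1936 with array weights, 17 after rescaling, 26 with no filter, 7 with a pseudocount of 0.1, 15 after quantile normalization, 30 with summed rows and 0 with the replicate block (4037 at an unadjusted p under 0.05), and 5 to 284 with 1 library left out. Same-numbered libraries of the 2 groups correlated at 0.133, -0.0111, -0.0117 and 0.121 in their deviations. Libraries of different numbers correlated at -0.176 to 0.0875, below the values of replicates 1 and 4. Such correlations cannot show whether same-numbered libraries were handled together, and the main fit did not pair them.

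The ratios gave 0 past the threshold in every setting run. No lone ratio could have passed the adjustment with so few libraries, so this count does not bear on how stable the ratios are. Vwf turned from 0.08 to -0.29 after rescaling, -0.18 after quantile normalization and -0.23 to 0.27 with a library left out, and Egfl7 from 0.26 to -0.034 after rescaling and -0.035 after quantile normalization. The Eng over Cdh5 ratio turned from -0.01 to 0.000422 with 0.1 added, and to between -0.16 and 0.21 with a library left out. With a library left out, Tie1 over Cdh5 ran from -0.43 to 0.13, Emcn over Cdh5 from -0.43 to 0.13 and Flt1 over Kdr from -0.43 to 0.018. The other tested members kept their direction in all settings run. Coverage limits Kdr, Emcn and the Robo4-like rows most.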
